A study of Homo sapiens with 30 samples.

Results

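The 7 genes described here encode human proteins grouped as methyl-CpG binding proteins. MBD1, MBD2, MBD3 and MBD4 carry a methyl-CpG binding domain, and ZBTB33 (Kaiso), ZBTB38 and ZBTB4 bind through zinc fingers. The 7 genes were taken by Ensembl gene ID from the gene counts, and 7 of 7 were found among 60664 genes in each of 30 RNA-seq libraries. The libraries form 10 groups of 3 separate cultures. K562, a leukaemia line, and HCT116, a colon carcinoma line, were treated as wild type cells for 3 days with 10 µM of an inhibitor of the maintenance methyltransferase DNMT1 (DNMT1i) or with DMSO. A single-cell clone of HCT116 with HaloTag knocked in on both copies of CTCF (HT-CTCF) was kept in DNMT1i or in DMSO for 1 day, with or without the CTCF degrader HaloPROTAC3, which was given before and throughout. A clone of K562 with degradable SON and SRRM2, the scaffold proteins of nuclear speckles, received 500 nM dTAG-13 or DMSO for 6 hours. The tag on SRRM2 in that clone replaces its last residues. HT-CTCF and the speckle line are each a clone, and all of their groups, DMSO controls included, carry the tags.

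On hg38, MBD1 (ENSG00000141644) lies at chr18:50266882-50281774 and MBD2 (ENSG00000134046) at chr18:54151606-54224669, both on the minus strand. MBD3 (ENSG00000071655) lies at chr19:1573596-1592865 and MBD4 (ENSG00000129071) at chr3:129430947-129440179, also on the minus strand. ZBTB33 (ENSG00000177485) lies at chrX:120250752-120258398 and ZBTB38 (ENSG00000177311) at chr3:141324213-141449792 on the plus strand, and ZBTB4 (ENSG00000174282) at chr17:7459366-7484263 on the minus strand. All are annotated as protein-coding genes.

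Methylation of CpG marks much of the genome of somatic cells, and DNMT1 restores it on the new strand after replication. Readers of the mark differ in what they bring to it. MBD2 joins the NuRD complex of chromatin remodellers and histone deacetylases. MBD3 joins a separate form of NuRD, although mammalian MBD3 has little preference for methylated DNA. MBD1 works with the H3K9 methyltransferase SETDB1 and its cofactor ATF7IP. MBD4 is a DNA glycosylase that removes thymine or uracil paired with guanine at CpG, the product of deamination. ZBTB33, ZBTB38 and ZBTB4 are BTB zinc finger repressors, and ZBTB33 recruits corepressor complexes with histone deacetylases.

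Libraries held 16606855 to 20924381 counts in genes in K562, 17074791 to 21228534 in HCT116, 16173008 to 20625817 in the speckle line and 4243092 to 9407430 in HT-CTCF, so values of HT-CTCF rest on fewer reads. The members were counted 74 times (MBD3) to 2945 times (ZBTB38) in a library. Of 9 K562 markers, 8 averaged at least 1 CPM in the K562-derived groups, with a summed 505 to 719 CPM per library, against 1.80 to 11.8 CPM in the HCT116-derived libraries. Of 8 epithelial markers, 7 averaged at least 1 CPM in the HCT116-derived groups, with sums of 3177 to 4566 CPM, against 432 to 1086 CPM in K562-derived libraries. HBE1 was near 0 in K562 and CEACAM6 in HCT116. K562 DMSO replicate 3 stood apart: it differed from its 2 replicates by 26.2 to 27.7 in a chi-square of gene counts over its degrees of freedom, where those differed from each other by 2.31 and all other replicate pairs by 1.74 to 12.9. Calls of members and of their bins that rest on it, and levels per length, are also given without it. Several other values that rest on it are not. CTCF, SON and SRRM2 RNA give no check of the degraders, which act on the proteins.

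MBD1 was the only member called in both wild type lines under DNMT1i, where called means a Benjamini-Hochberg adjusted p below 0.05 over all genes in edgeR's quasi-likelihood test. In K562 it had 43.5, 39.9 and 38.5 CPM (counts scaled to 1000000 counts in genes) with DNMT1i, against 28.4, 26.4 and 27.4 CPM with DMSO. The groups did not overlap, and MBD1 rose 1.44-fold (log2 0.53 ± 0.09 SE, adjusted p = 0.00412), and by log2 0.54 without K562 DMSO replicate 3 (adjusted p = 0.000365). In HCT116 it had 61.7, 71.7 and 64.9 CPM with DNMT1i, against 36.1, 36.6 and 40.4 CPM with DMSO, again without overlap, a rise of 1.63-fold (log2 0.70 ± 0.08, adjusted p = 3.03e-07). The change in K562 minus that in HCT116 was log2 -0.17 (95% interval -0.42 to 0.08, adjusted p = 0.321, and log2 -0.16 without K562 DMSO replicate 3), an interval that includes 0. In the speckle line MBD1 moved the other way: it had 35.4, 32.6 and 39.0 CPM with dTAG-13, against 48.2, 43.7 and 51.3 CPM with DMSO. This fall to 0.75-fold (log2 -0.42 ± 0.09, adjusted p = 0.0353) was lost when dTAG-13 replicate 1 or 2 was left out (adjusted p = 0.0986 and 0.172), or DMSO replicate 1 or 3 (0.159 and 0.0842). A bulk library cannot tell fewer cells of a type from less RNA per cell.

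**Figure D1:**
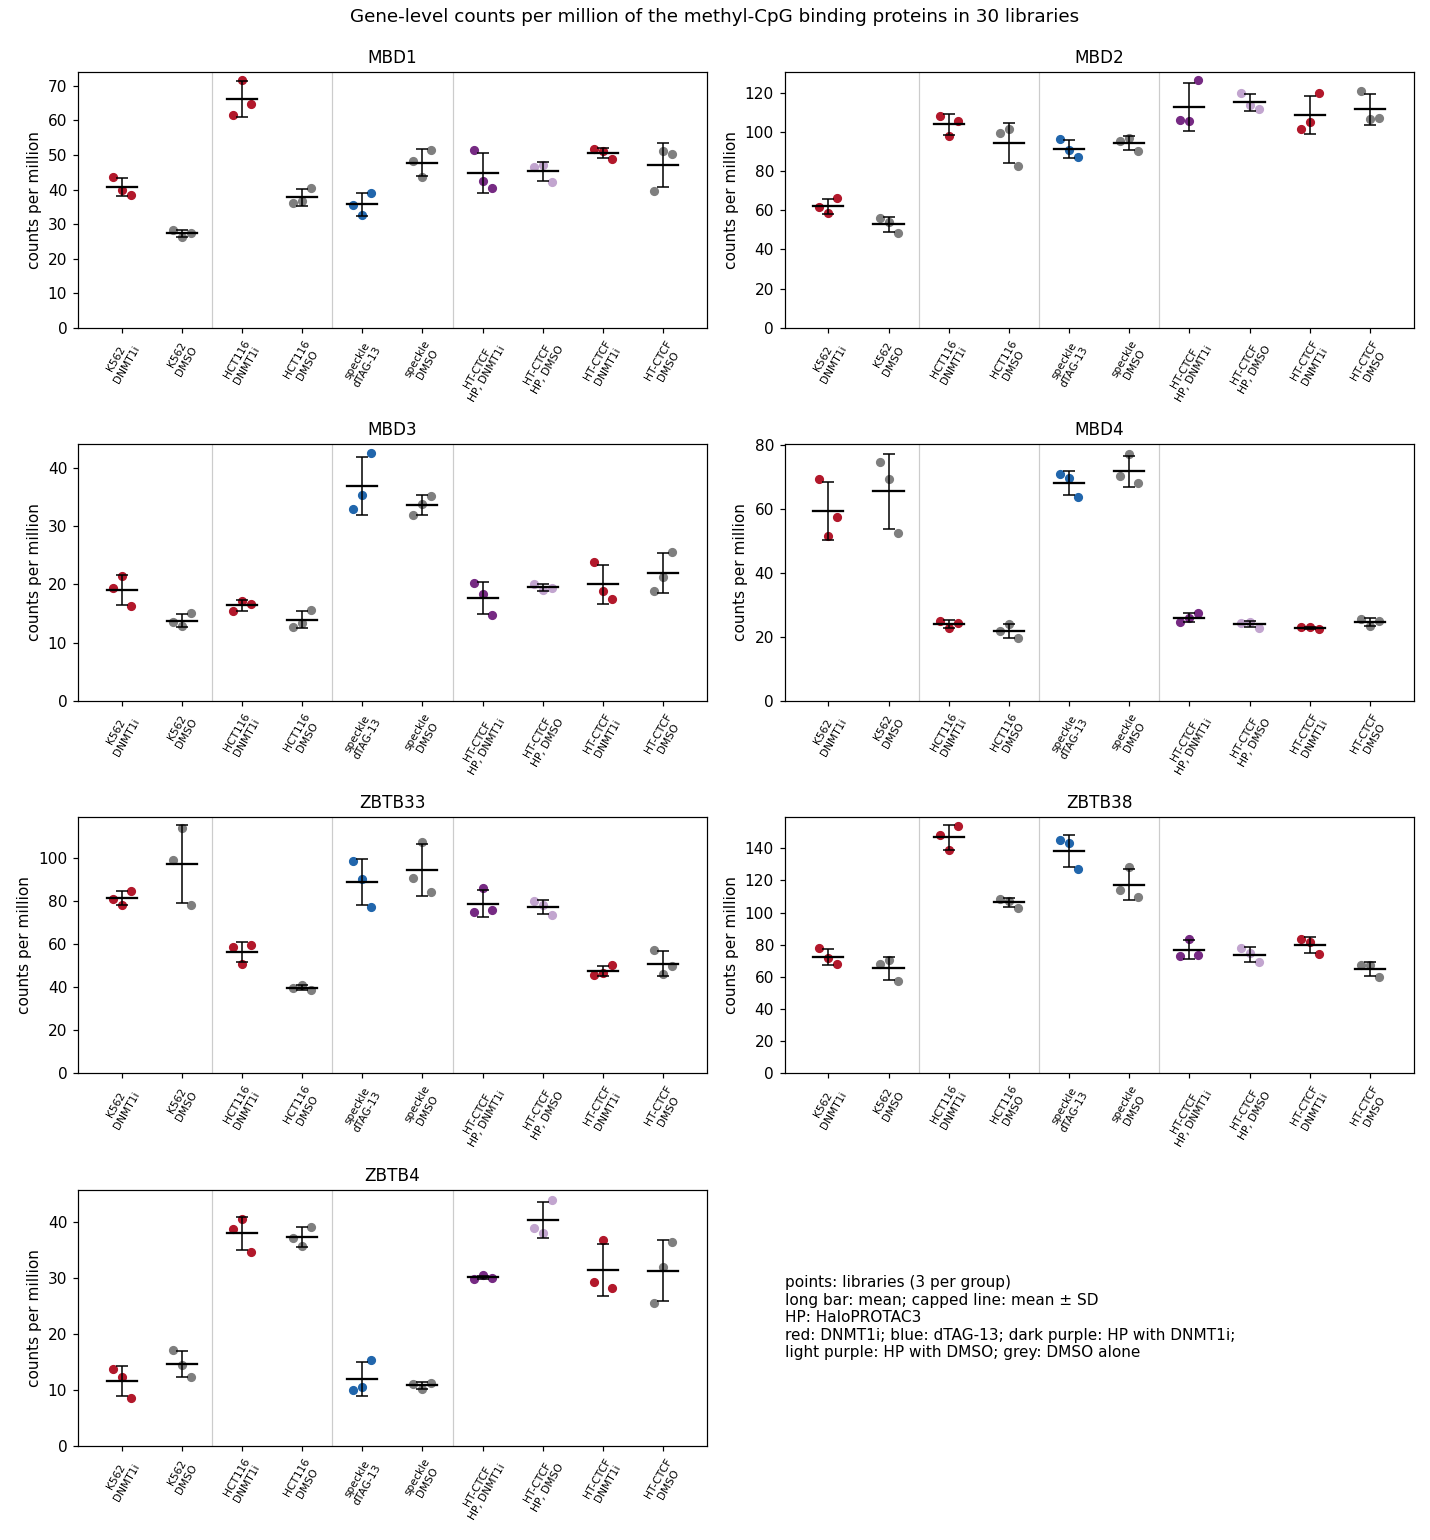
CPM of the 7 members in the 10 groups, 1 panel per gene, with each of 3 libraries as a point and the mean ± SD as a bar. In the MBD1 panel the K562 DNMT1i libraries (38.5 to 43.5 CPM) sit above the DMSO libraries (26.4 to 28.4 CPM), and ZBTB33 is higher in both HaloPROTAC3 groups of HT-CTCF than in both groups without it.

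In K562, 1 of 7 members was called higher under DNMT1i and 0 lower, where 6.47% of 13726 genes were called higher and 2.38% lower. At an unadjusted p below 0.05 there were 4 members. Besides MBD1, the adjusted p was 0.0731 for MBD3 (log2 0.42 ± 0.13), 0.188 for ZBTB33 (log2 -0.29 ± 0.12) and 0.204 for ZBTB4 (log2 -0.39 ± 0.17). MBD3, the NuRD subunit, had 19.5, 21.5 and 16.2 CPM with DNMT1i, against 13.5, 12.8 and 15.1 CPM with DMSO, with no overlap. ZBTB33 had 81.1, 78.2 and 84.6 CPM with DNMT1i, against 99.0, 114 and 78.0 CPM with DMSO, where the lowest DMSO value belongs to replicate 3. Without K562 DMSO replicate 3 the number of members called was 5, with 2 higher and 3 lower. Of 14249 genes tested in that fit, 1941 were called higher and 1499 lower, so 3440 genes were called in place of 1214. The members were MBD1, and MBD3 (log2 0.50, adjusted p = 0.00707), MBD4 (log2 -0.30, adjusted p = 0.0330), ZBTB33 (log2 -0.41, adjusted p = 0.00140) and ZBTB4 (log2 -0.49, adjusted p = 0.0325). The part of that library in the count with all 6 libraries was not tested.

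In HCT116, 3 of 7 members were called higher under DNMT1i and 0 lower, where 33.8% of 15885 genes were called higher and 27.9% lower, so the share of members called is near that of all genes. ZBTB33 had 58.5, 50.9 and 59.6 CPM with DNMT1i, against 39.4, 41.0 and 38.6 CPM with DMSO. It rose 1.32-fold (log2 0.40 ± 0.09, adjusted p = 0.000632) with no overlap. ZBTB38, a zinc finger repressor related to ZBTB4, had 148, 139 and 154 CPM with DNMT1i, against 108, 107 and 103 CPM with DMSO. It rose 1.28-fold (log2 0.36 ± 0.08, adjusted p = 0.000399), also with no overlap. The other 4 members had log2 changes between -0.08 and 0.14, and the lowest adjusted p among them was 0.276. MBD2, the most abundant of them, had 108, 97.7 and 106 CPM with DNMT1i, against 99.3, 101 and 82.6 CPM with DMSO, ranges that overlap. The median log2 change of the members was 0.14, against 0.02 over all genes. Scaled by library totals alone, the median of all genes was 0.13, and 6307 genes were called higher and 3265 lower in place of 5365 and 4426, and 3 members were still called. Cell type markers moved in the same comparison. Of 7 tested epithelial markers 1 rose and 5 fell (list median log2 -0.63). The epithelial sums overlapped, at 3695 to 4566 CPM with DNMT1i, against 3942 to 4314 CPM with DMSO. Of 3 tested K562 markers 2 rose and 0 fell (list median log2 1.25), with sums of 9.94 to 11.8 CPM, against 5.46 to 7.61 CPM. Both tested fibroblast markers of a list of 6 rose, with summed levels of 24.1 to 32.9 CPM with DNMT1i, against 8.99 to 11.2 CPM with DMSO. Of those 6 fibroblast markers 1 averaged at least 1 CPM. The part of these marker lists in the members' changes was not tested.

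**Figure D2:**
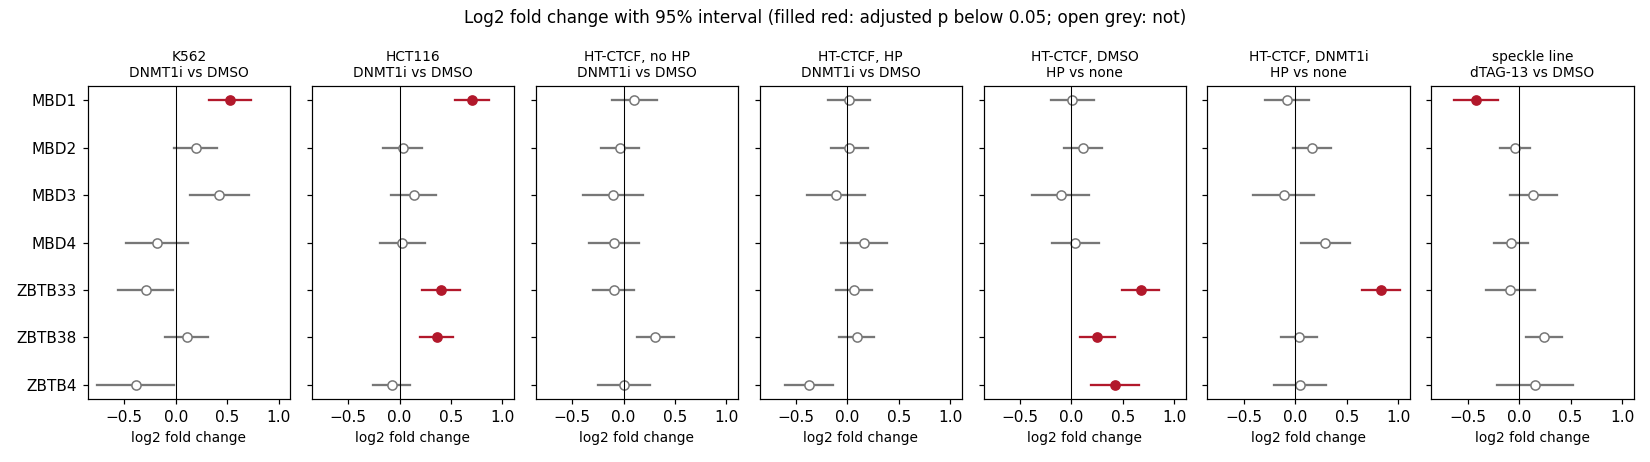
Log2 fold change of each member in 7 comparisons, with the 95% interval, and filled red points for an adjusted p below 0.05. MBD1 is right of 0 for DNMT1i in K562 and HCT116 and left of 0 for dTAG-13, and ZBTB33 is the member with the largest positive changes under HaloPROTAC3.

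ZBTB33 was the only member whose response to DNMT1i differed between the lines. Its change in K562 minus that in HCT116 was log2 -0.68 ± 0.15 (95% interval -1.01 to -0.36, adjusted p = 0.00245), and log2 -0.81 without K562 DMSO replicate 3 (adjusted p = 1.02e-05). Here 0 of 7 members were called higher and 1 lower, where 14.1% of 17237 genes had a more positive response in K562 and 15.7% a more negative one. Without K562 DMSO replicate 3, ZBTB38 was called as well (log2 -0.32, adjusted p = 0.0214), and 5 members had an unadjusted p below 0.05. Of 17806 genes tested in that fit, 3079 had a more positive response in K562 and 3262 a more negative one.

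In the DMSO controls, kept in DMSO as long as the treated cells were in DNMT1i, the lines differed in 6 of 7 members. K562 DMSO libraries were higher than HCT116 DMSO libraries in 2 and lower in 4. Of 17237 genes, 36.9% were called higher and 39.6% lower, so most of all genes differed between the lines as well. MBD4, the glycosylase, had 74.7, 69.5 and 52.3 CPM in K562, against 21.8, 23.9 and 19.7 CPM in HCT116, 2.96-fold higher (log2 1.56 ± 0.13, adjusted p = 1.1e-09). ZBTB33 was 2.41-fold higher in K562 (log2 1.27 ± 0.11, adjusted p = 2.69e-09). ZBTB4 had 17.1, 14.5 and 12.3 CPM in K562, against 37.1, 35.7 and 39.2 CPM in HCT116 (log2 -1.36 ± 0.13, adjusted p = 1.27e-08). MBD2 (log2 -0.86 ± 0.10), ZBTB38 (log2 -0.72 ± 0.09) and MBD1 (log2 -0.47 ± 0.09) were also lower in K562. The groups of all 6 called members did not overlap, and the share of all genes without overlap was not counted. Without K562 DMSO replicate 3 the same comparison gave log2 1.69 for MBD4, 1.39 for ZBTB33, -1.26 for ZBTB4, -0.81 for MBD2, -0.65 for ZBTB38 and -0.49 for MBD1, all called. MBD3 had 13.5, 12.8 and 15.1 CPM in K562, against 12.7, 13.4 and 15.6 CPM in HCT116, which overlap. K562 and HCT116 are single lines, so a difference between them is one of these lines and not of the tissues they came from.

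Per length, as CPM for each 1000 bases of the gene's exon bins (RPKM), the order also differed between the lines. In K562 DMSO it ran MBD4 (19.5 RPKM), ZBTB33 (18.3), MBD2 (9.30), ZBTB38 (4.58), MBD1 (4.07), ZBTB4 (2.39) and MBD3 (1.93), where MBD4 and ZBTB33, ZBTB38 and MBD1, and ZBTB4 and MBD3 overlapped in their libraries. Without K562 DMSO replicate 3, a choice made after seeing the data, the order was unchanged and ran over 21.5 RPKM for MBD4, 20.05 for ZBTB33, 9.66 for MBD2, 4.86 for ZBTB38, 4.07 for MBD1, 2.58 for ZBTB4 and 1.84 for MBD3. In HCT116 DMSO it ran MBD2 (16.6 RPKM), ZBTB33 (7.47), ZBTB38 (7.46), MBD4 (6.51), ZBTB4 (6.09), MBD1 (5.60) and MBD3 (1.95), where ZBTB33 and ZBTB38, MBD4 and ZBTB4, and ZBTB4 and MBD1 overlapped. With the longest transcript as the length 5 of 14 ranks changed. MBD3 shares 767 exon bases (9.7%) with a readthrough gene on its strand, ENSG00000267059, which was listed at 0 in all 30 libraries, and these bases are in no exon bin, so its level is uncertain. MBD4 shares 279 exon bases (8.3%) with IFT122 on the other strand, and the sources used here do not say whether counting used strand.

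ZBTB33 had the largest change of any member within a line, in HT-CTCF with HaloPROTAC3. In DMSO it had 79.8, 78.1 and 73.5 CPM with HaloPROTAC3, against 57.1, 46.0 and 49.6 CPM without it, 1.59-fold (log2 0.67 ± 0.09, adjusted p = 1.42e-06). In DNMT1i it had 74.9, 85.8 and 75.5 CPM with HaloPROTAC3, against 45.8, 46.4 and 50.2 CPM without it, 1.78-fold (log2 0.83 ± 0.09, adjusted p = 3.9e-08). The groups did not overlap in either setting. In DMSO, 3 of 7 members were called higher and 0 lower with HaloPROTAC3, where 10.1% of 12690 genes were called higher and 7.28% lower. In DNMT1i, 1 of 7 was called higher and 0 lower, where 12.2% were called higher and 10.1% lower. Scaled by library totals, the balance of all genes turned: 918 were called higher and 1505 lower in DMSO, in place of 1276 and 924, and 940 higher and 2246 lower in DNMT1i, in place of 1551 and 1286, and ZBTB33 was higher in both. Of 7 tested epithelial markers, 3 rose and 0 fell with HaloPROTAC3 in DMSO, and 2 rose and 1 fell in DNMT1i, and their part in the members' changes was not tested. CTCF RNA was higher with HaloPROTAC3 in both settings (log2 0.73 in DMSO and 0.67 in DNMT1i). Of the 3 genes CTCF, SON and SRRM2, 3 were called higher in DMSO and 1 in DNMT1i. Loss of CTCF and other effects of HaloPROTAC3 cannot be told apart in this design.

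ZBTB4 had 39.0, 38.1 and 44.05 CPM with HaloPROTAC3 in DMSO, against 25.5, 32.0 and 36.5 CPM without it (log2 0.42 ± 0.12, 1.34-fold, adjusted p = 0.00988). The call was lost without the DMSO library replicate 1 that had no HaloPROTAC3 (adjusted p = 0.0747) or without HaloPROTAC3 DMSO replicate 3 (0.0639). ZBTB38 had 77.7, 74.8 and 69.0 CPM with HaloPROTAC3 in DMSO, against 67.2, 67.5 and 60.03 CPM without it (log2 0.25 ± 0.09, adjusted p = 0.0374). This was the weakest call: it was lost with DESeq2 (adjusted p = 0.0656), with library totals (0.136), without a filter (0.0654), with only the 6 libraries compared (0.0532) and in 5 of the fits that left out 1 library, with adjusted p of 0.0534 to 0.168.

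After 1 day of DNMT1i, 0 of 7 members were called in HT-CTCF by edgeR without HaloPROTAC3 (1 at an unadjusted p below 0.05, 0 by DESeq2), where 1.98% of 12690 genes were called higher and 0.504% lower. ZBTB38 came nearest: it had 83.3, 81.8 and 74.2 CPM with DNMT1i, against 67.2, 67.5 and 60.03 CPM with DMSO, with no overlap (log2 0.31 ± 0.09, adjusted p = 0.0545). MBD1 had 51.6, 51.1 and 48.8 CPM with DNMT1i, against 39.7, 51.2 and 50.2 CPM with DMSO, which overlap. With HaloPROTAC3 again 0 of 7 members were called by edgeR (1 at an unadjusted p below 0.05, 0 by DESeq2), where 2.86% were called higher and 2.55% lower. ZBTB4 had 29.9, 30.5 and 30.05 CPM with DNMT1i, against 39.0, 38.1 and 44.05 CPM with DMSO, with no overlap (log2 -0.37 ± 0.11, adjusted p = 0.05001, just above the threshold). The interaction of both agents was called for 0 of 7 members by edgeR (1 at an unadjusted p below 0.05, 0 by DESeq2), where 0.0552% were called higher and 0.213% lower. DNMT1i without HaloPROTAC3 shares its DMSO libraries with the comparison of HaloPROTAC3 in DMSO, and the interaction uses all of the HT-CTCF groups. The wild type cells were treated longer, so their values stand beside these without a test.

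In the speckle line, 0 of 7 members were called higher with dTAG-13 and 1 (MBD1) lower, where 1.57% of 14104 genes were called higher and 3.09% lower. ZBTB38 had 145, 143 and 127 CPM with dTAG-13, against 114, 128 and 110 CPM with DMSO (log2 0.24 ± 0.08, adjusted p = 0.124). The dTAG-13 and DMSO ranges of ZBTB38 overlapped only between 127 and 128 CPM. The call of ZBTB38 was gained without dTAG-13 replicate 3 (adjusted p = 0.0298) and without a filter (0.0414). It was also gained with a block for the replicate number, where 1175 genes were called higher and 1886 lower, in place of 222 and 436.

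MBD2, MBD3 and MBD4 were called in no treatment comparison with all libraries and the filter on low counts, and without that filter MBD3 was called in K562 under DNMT1i (log2 0.43, adjusted p = 0.0343). MBD2 had 61.5, 58.5 and 66.1 CPM in K562 with DNMT1i, against 55.9, 54.0 and 48.7 CPM with DMSO, which do not overlap (adjusted p = 0.261). MBD4 had 69.2, 51.4 and 57.4 CPM in K562 with DNMT1i, against 74.7, 69.5 and 52.3 CPM with DMSO, which overlap. In HCT116 MBD4 had 24.8, 22.7 and 24.4 CPM with DNMT1i, against 21.8, 23.9 and 19.7 CPM with DMSO, also overlapping. MBD3 had 15.4, 17.2 and 16.6 CPM in HCT116 with DNMT1i, against 12.7, 13.4 and 15.6 CPM with DMSO, where 1 DNMT1i library lay below the highest DMSO library. In HT-CTCF with DNMT1i, MBD4 had 24.5, 26.0 and 27.4 CPM with HaloPROTAC3, against 23.0, 23.0 and 22.4 CPM without it, and these did not overlap (log2 0.29 ± 0.12, adjusted p = 0.0673). In the speckle line MBD2 had 96.3, 90.9 and 87.2 CPM with dTAG-13, against 95.3, 97.1 and 90.1 CPM with DMSO, which overlap.

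Exon bins, the pieces into which the annotated exons of all transcripts of a gene divide, show which part of a member's RNA moved. Usage is the log2 change of a bin minus that of its whole gene, over the tested bins and with the bin itself included. Of 205 member bins, K562 had 100 tested and 2 called, where 0.0492% of all 186972 bins tested were called. HCT116 had 113 tested and 10 called, where 0.846% of all 201926 bins were called. The speckle line had 115 tested and 0 called by edgeR (6 at an unadjusted p below 0.05), where 0.132% of all 184300 bins were called. No other tool was run on bins.

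The most changed bin in both wild type lines lies in MBD3. Bin 9 covers chr19:1584678-1584954 on the minus strand of hg38, which is 277 bases of the 377-base intron 2 of the canonical transcript and the first exon of MBD3-208, a transcript annotated as a retained intron. In K562 it had 36, 39 and 20 counts with DNMT1i, against 2, 2 and 0 with DMSO (usage log2 3.86, adjusted p = 5.66e-05, and log2 3.27, adjusted p = 0.0021, without K562 DMSO replicate 3). In HCT116 it had 23, 20 and 17 counts with DNMT1i, against 0, 1 and 1 with DMSO (usage log2 4.30, adjusted p = 8.22e-08). It made up 5.77% of all MBD3 bin counts with DNMT1i, against 0.368% with DMSO, in K562, and 4.26% against 0.184% in HCT116. The counts ratio of the 2 groups was 22.3 (95% interval 8.44 to 83.7) in K562 and 28.1 (7.45 to 237) in HCT116, intervals that cover counting error only. The call held in every alternative in both lines. In the speckle line the bin had 1, 2 and 0 counts with dTAG-13, against 0, 0 and 0 with DMSO.

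**Figure D3:**
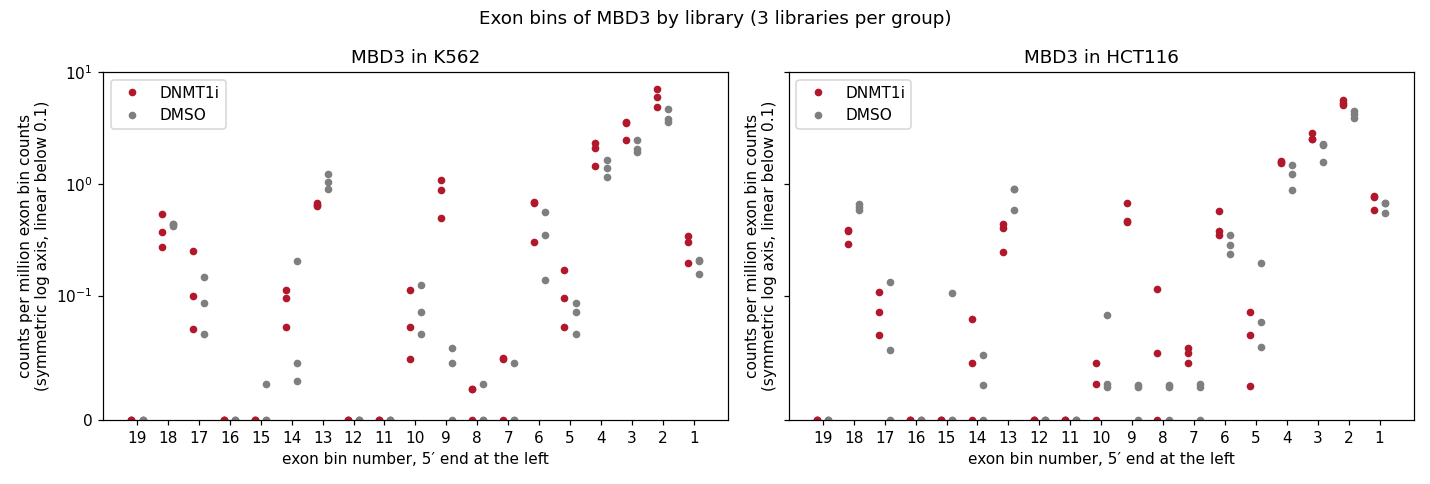
CPM of the exon bins of MBD3 from 5′ (left) to 3′ (right) in K562 and HCT116, on a symmetric log axis, with DNMT1i and DMSO libraries. The DNMT1i points stand apart from the DMSO points at bin 9, with 20 to 39 against 0 to 2 counts in K562 and 17 to 23 against 0 to 1 in HCT116, where most other bins lie close together.

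The annotated start of MBD3-208 lies 7911 bases into the gene from the canonical start and 100 bases into the intron after exon 2, and the counts cannot tell a start there from retention of that intron. The canonical promoter and the window around that internal start are shown because both hold many CpG, the dinucleotide that DNMT1 methylates. CpG is in capitals and the rest in lower case, from 250 bases before to 50 bases after the start, on the minus strand. The promoter comes from RefSeq on GRCh38.p14 and the internal window from hg38.
MBD3 promoter, chr19:1592816-1593115: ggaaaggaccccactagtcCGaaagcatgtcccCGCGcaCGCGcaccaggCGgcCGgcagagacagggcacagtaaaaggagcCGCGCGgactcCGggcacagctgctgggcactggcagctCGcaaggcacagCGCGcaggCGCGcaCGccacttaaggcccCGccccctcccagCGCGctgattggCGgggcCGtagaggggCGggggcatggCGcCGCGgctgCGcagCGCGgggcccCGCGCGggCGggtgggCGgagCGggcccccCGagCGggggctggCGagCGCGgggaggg
MBD3 internal start, chr19:1584905-1585204: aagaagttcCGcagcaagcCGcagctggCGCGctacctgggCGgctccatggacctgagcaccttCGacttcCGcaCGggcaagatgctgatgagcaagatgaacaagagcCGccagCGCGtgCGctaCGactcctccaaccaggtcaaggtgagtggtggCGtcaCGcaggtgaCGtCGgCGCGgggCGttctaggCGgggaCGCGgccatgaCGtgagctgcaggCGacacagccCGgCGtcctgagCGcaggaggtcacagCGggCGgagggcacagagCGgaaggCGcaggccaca
The part of the second window from base 1585055 on lies in exon 2 of the canonical transcript. The first window holds 40 CpG and the second 32, against a median of 14 in 35116 RefSeq promoters of the same length. The promoters of MBD2 and ZBTB33 hold 32 and 33. The GC shares of the windows shown are 77.0% and 67.0%. Their ratio of observed to expected CpG is 0.91 and 0.96. Methylation of these letters was not measured in the data described here.

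The other MBD3 bin that was called was bin 13 at chr19:1585905-1586362, the first exon of the coding transcript MBD3-210. In HCT116 it had 14, 19 and 9 counts with DNMT1i, against 20, 34 and 32 with DMSO (usage log2 -1.41, adjusted p = 0.00129), lost without DNMT1i replicate 3 (adjusted p = 0.0907). In K562 it had 26, 23 and 27 counts with DNMT1i, against 45, 31 and 39 with DMSO (usage log2 -1.19, adjusted p = 0.241).

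In MBD1 the called bins lay near the 3′ end, and their direction split by last exon. Bin 2 at chr18:50266886-50267516, the distal last exon of MBD1-212 and MBD1-227, had 59, 34 and 30 counts with DNMT1i in K562, against 77, 62 and 47 with DMSO (usage log2 -1.16, adjusted p = 0.00306). This call was lost in 4 of 6 fits that left out 1 library, without DNMT1i replicate 2 (adjusted p = 0.0921) or 3 (0.369) or DMSO replicate 1 (0.0896) or 2 (0.175), and kept without K562 DMSO replicate 3 (usage log2 -1.26, adjusted p = 3.1e-05). In HCT116 it had 46, 75 and 68 counts with DNMT1i, against 65, 70 and 63 with DMSO (usage log2 -0.92, adjusted p = 0.00101), with overlapping counts where the gene as a whole rose. The neighbouring bin 3 went the same way in HCT116 (usage log2 -1.04, adjusted p = 0.00473), lost without DMSO replicate 1 (0.0642). Bin 14, found only in the extended last exon of MBD1-224, had 141, 154 and 131 counts with DNMT1i in HCT116, against 48, 41 and 49 with DMSO (usage log2 0.78, adjusted p = 0.00688), lost without DNMT1i replicate 1 (0.197) or DMSO replicate 2 (0.115). Bin 6 had 28, 20 and 35 counts with DNMT1i, against 2, 8 and 5 with DMSO (usage log2 1.61, adjusted p = 0.00919). That call was lost in 4 of 6 fits, without DNMT1i replicate 1 (0.0950) or 3 (0.238) or DMSO replicate 1 (0.209) or 3 (0.0990). Bin 7, in the last exon of the canonical MBD1-201, was also called and is named after its values were seen (usage log2 0.59, adjusted p = 0.0201), and it was lost in 5 of 6 fits, all but that without DNMT1i replicate 2. Bin 2 was the MBD1 bin whose HCT116 call held in all 6.

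ZBTB38 had called bins at an alternative first exon in HCT116. Bin 30 (chr3:141402349-141402369) had 9, 13 and 6 counts with DNMT1i, against 20, 20 and 18 with DMSO (usage log2 -1.61, adjusted p = 0.00201), lost without DNMT1i replicate 3 (0.112). Bin 31 (chr3:141402370-141402449) had 23, 23 and 28 counts with DNMT1i, against 32, 39 and 35 with DMSO (usage log2 -1.07, adjusted p = 0.00900), lost without DNMT1i replicate 1 (0.0734) or DMSO replicate 2 (0.0509) or 3 (0.0859). Both form the first exon of ZBTB38-211 and ZBTB38-204. In K562 bin 30 had 5, 4 and 2 counts and bin 31 had 9, 6 and 2 counts with DNMT1i, against 0 in each DMSO library. Both fell below the count filter of the main test, so no main p-value is given for this rise. A minimum of 10 counts in its place lets both in, with 145 member bins tested in K562 and 3 called. In the HCT116 last coding exon, bin 59 had 190, 149 and 249 counts with DNMT1i, against 97, 91 and 85 with DMSO (usage log2 0.57, adjusted p = 0.0476), a call lost in 5 of 6 fits that left out 1 library, all but that without DNMT1i replicate 2 and with the filter of 10 counts (0.0572). The window at the start of bin 30 is shown because this is the only one of 10 RefSeq start windows of ZBTB38 with a called bin at its start. CpG is in capitals, on the plus strand, from RefSeq on GRCh38.p14.
ZBTB38 start window, chr3:141402099-141402398: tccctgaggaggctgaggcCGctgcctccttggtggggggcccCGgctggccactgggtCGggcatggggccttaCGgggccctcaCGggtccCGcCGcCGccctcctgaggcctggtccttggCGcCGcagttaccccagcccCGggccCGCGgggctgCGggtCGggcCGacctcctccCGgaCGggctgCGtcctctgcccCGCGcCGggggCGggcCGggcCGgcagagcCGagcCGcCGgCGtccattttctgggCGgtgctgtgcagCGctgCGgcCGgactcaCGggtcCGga
It holds 35 CpG, and the 10 windows of the gene range from 0 to 35. The letters TCCTGCNA, a sequence that ZBTB33 binds without methylation, were searched on both strands: they occur in 4.7% of all promoters, in 1 of the 10 ZBTB38 windows and in none of the windows of the other 6 members.

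Genes that work with the members were counted from lists chosen with earlier results known. In HCT116 under DNMT1i, of 13 NuRD subunits 4 were called higher and 5 lower (CHD5 1.17, CDK2AP1 0.90 and CHD3 -0.58 on the log2 scale), with a list median of -0.01. Of 5 H3K9 methylation partners of MBD1, 4 fell, with SUV39H1, which methylates H3K9, at log2 -1.66, CHAF1A, a chromatin assembly subunit, at -0.55 and CBX5, which binds the mark, at -0.52. Of 10 tested corepressors and partners of the ZBTB proteins 4 rose and 3 fell (TBL1X -0.50 and CTNND1, the catenin that binds ZBTB33, -0.60). Of 11 repair genes around MBD4 1 rose and 7 fell, with APEX1, the endonuclease that cuts after the glycosylase, at log2 -0.72 and LIG3, the ligase, at -0.51. These counts stand beside the 33.8% and 27.9% of all genes called. In K562 SUV39H1 (log2 -1.26) and CBX5 (-0.40) fell and CDK2AP1 (0.92) rose, where 6.47% of all genes were called higher and 2.38% lower. In DMSO with HaloPROTAC3, CHD3 (log2 0.59) and CDK2AP1 (0.32) of NuRD rose and so did NCOR1 (0.30) of the corepressors. There 10.1% of all genes were called higher and 7.28% lower. With HaloPROTAC3 in DNMT1i, of 13 NuRD subunits 4 rose and 3 fell (CDK2AP1 0.60, CHD5 -0.68, MTA2 -0.27), CHAF1A fell (-0.44) and TBL1XR1 rose (0.25). There 12.2% of all genes were called higher and 10.1% lower. In the speckle line LIG3 fell (log2 -0.36) with dTAG-13, where 1.57% of all genes were called higher and 3.09% lower.

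Across the 10 groups, the means of log2 CPM of each member were compared with those of 13678 genes, as a description, since the points share cell line and depth. MBD4 was most like FANCL, RIMOC1 and LYRM4 (r = 0.997, 0.996 and 0.996), and ZBTB4 most like BBX, ELK4 and SH3YL1 (0.99 each). ZBTB33 was most like DNAJC10 (0.98), ABCC5 (0.97) and CMTM3 (0.95), and MBD3 most like MRPL41 (0.98), PSMC4 (0.97) and CRCP (0.97). MBD2 was nearest to UNC13A (0.98), ZBTB38 to C11orf80 (0.97), and MBD1 had the weakest nearest neighbour, FBN1 (0.90). The highest of the 10 group means was 2.18-fold (MBD2) to 3.74-fold (ZBTB4) the lowest.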

How the data were processed

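Poly(A) RNA of 30 cultures was made into libraries with molecular identifiers. The authors collapsed reads with UMI-tools 1.1.1, trimmed them with cutadapt 2.7, aligned them with STAR 2.6.0 to hg38 and counted genes with HTSeq, and used DESeq2 1.28 in R 4.0.2. The sources used here do not give the strand setting. The deposited gene and exon bin files hold raw counts, with 17.1% to 23.6% of counts placed in no gene, which were left out. Bin coordinates and other annotation came from the authors' bin files, and their comparison columns (fold changes and p-values), which hold their own tests, were not used. Gene names were matched for 60463 of 60664 IDs (99.7%), with GENCODE release 44 for transcripts.

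Genes were tested with edgeR 4.0.16 (R 4.3.3) by glmQLFTest after filterByExpr and TMM scaling, in 1 fit per experiment with K562 and HCT116 fitted together for the comparisons between lines, and adjusted by Benjamini-Hochberg over all genes, two-sided. Bins were tested with diffSpliceDGE in the same way. Exon bins of HT-CTCF were not analysed here. Scripts were tested on simulated data. DESeq2 1.42.0, RLE scaling, library totals, no filter, a bin minimum of 10 counts, a replicate block, only the 6 libraries compared and leaving out each library were alternatives. Named are all members, up to 3 called genes per list and comparison with the smallest p (1 such gene is not reported here), the 3 most alike genes (mean of at least 1 CPM, prior count 2) and up to 4 called bins per member and comparison. Members and lists were chosen with earlier results of these data known. CPM is a count scaled to 1000000 counts in genes. P-values measure the spread between separate cultures, and intervals of count ratios cover counting error only.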

Additional observations from a re-analysis of the deposited data

Results flagged for a closer look

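ZBTB33 (Kaiso) was picked out because its response to DNMT1i differed between K562 and HCT116 by a test of the difference itself. The change in K562 minus that in HCT116 was log2 -0.68 (adjusted p = 0.00245, edgeR's quasi-likelihood test). With DNMT1i against DMSO, ZBTB33 had log2 -0.29 in K562 (adjusted p = 0.188, not past the threshold) and rose in HCT116 (log2 0.40, adjusted p = 0.000632). Both lines had 3 libraries per group, and all 3 HCT116 DNMT1i libraries were above all 3 DMSO libraries, whereas the K562 groups overlapped. K562 DMSO replicate 3, with the lowest ZBTB33 value of its group, stands apart from its replicates, and the call of the difference held when it was left out.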

How the results depend on the processing

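Of 70 member values, 26 had an unadjusted p below 0.05 in the main test or were called in some fit. None of these 26 changed sign under an alternative, but they were chosen as changed, so this is no test of stability. Of 16 called member values, 13 were called in every alternative. The other 44 of the 70 values met neither condition, and 20 of those changed sign in at least 1 alternative. The number of members called for HT-CTCF DNMT1i with HaloPROTAC3 was 1 in place of 0 under RLE scaling, library totals, no filter and only the 6 libraries compared. Without a filter it was 2 in place of 1 for K562 DNMT1i (MBD3 added, adjusted p = 0.0343) and for the speckle line (ZBTB38 added, 0.0414). With the replicate block it was 2 for the speckle line (ZBTB38 added, 0.000947) and 2 speckle bins were called in place of 0. Over all genes of the speckle line, 1175 were called higher and 1886 lower with the block, and 222 and 436 without it. Same-numbered samples had deviations correlating between -0.177 and 0.381 over all experiments, and the samples were not treated as pairs. In the speckle line the correlations were all positive (0.0706, 0.145 and 0.381), so whether its samples are pairs is not settled. The block changed no other count of members called. Leaving out 1 library gave 1 to 5 members called in K562, 3 to 3 in HCT116, 1 to 2 for the difference between responses, 6 to 6 between the lines, 0 to 2 in the speckle line, 0 to 0 for DNMT1i without HaloPROTAC3, 0 to 1 with it, 2 to 3 for HaloPROTAC3 in DMSO, 1 to 1 in DNMT1i and 0 to 0 for the interaction. For bins it gave 1 to 3 in K562, 5 to 12 in HCT116 and 0 to 1 in the speckle line. With a minimum of 10 counts, 3 member bins were called in K562 in place of 2, and 9 in HCT116 in place of 10. Where leaving out a library changed a call, the cause was not tested. Library totals moved the median of all genes to -0.10 for HaloPROTAC3 in DNMT1i, and DESeq2 moved it to 0.16 for HCT116 and -0.20 for the difference between responses. Library totals gave 248 genes higher and 502 lower for DNMT1i with HaloPROTAC3, in place of 363 and 324, and 6 and 55 for the interaction, in place of 7 and 27. DESeq2 gave 60 and 83 for the interaction, and 1947 and 3266 for the difference between responses, in place of 2435 and 2699. The order of the K562 levels without K562 DMSO replicate 3, chosen after seeing the data, was unchanged. Depth limits HT-CTCF most, at 4243092 to 9407430 counts.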

Other observations

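MBD3L2, an MBD3-like gene without the DNA-binding part of the domain, was counted 19, 18 and 16 times in HCT116 DNMT1i libraries, against 0, 0 and 0 in HCT116 DMSO libraries, at least 16.7-fold higher (floor of 3 counts over the group), and 0 in all 27 other libraries. It has near-identical copies nearby, so its count is uncertain. In HCT116 under DNMT1i, DNMT3A (log2 0.64), TET2 (0.32) and TET3 (0.25) rose, and BAZ2B, a remodelling protein with an MBD-like domain, fell (-1.05). With HaloPROTAC3 in DMSO, TET1 (log2 0.66), TET3 (0.55), TET2 (0.44) and BAZ2B (0.56) rose. With HaloPROTAC3 in DNMT1i, 0 of the 6 DNMT and TET genes rose and DNMT1 fell (log2 -0.19), while BAZ2B rose (0.71) and UHRF1, which brings DNMT1 to new DNA, fell (-0.58). With DNMT1i in the presence of HaloPROTAC3, TET1 (log2 -0.65), TET3 (-0.61) and BAZ2A (-0.30) fell. These comparisons share the HaloPROTAC3 libraries. With dTAG-13 in the speckle line DNMT1 (log2 -0.34) and MBD6 (-0.51) fell and TET1 (0.38) rose. Of all genes, 33.8% were called higher and 27.9% lower in HCT116 under DNMT1i, and 1.57% and 3.09% in the speckle line. With HaloPROTAC3 the shares were 10.1% and 7.28% in DMSO, and 12.2% and 10.1% in DNMT1i. For DNMT1i in the presence of HaloPROTAC3 they were 2.86% and 2.55%.

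Clones and their parents were not tested against each other, since they were separate experiments. MBD1 averaged 47.7 CPM in the speckle line DMSO libraries and 27.4 CPM in K562 DMSO libraries, MBD3 33.7 and 13.8 CPM, and ZBTB38 117 and 65.3 CPM. ZBTB38 averaged 64.9 CPM in HT-CTCF DMSO libraries without HaloPROTAC3 and 106 CPM in HCT116 DMSO libraries.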
